A study of Mus musculus with 12 samples.

Results

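The proteasome genes were followed in mouse left ventricle after myocardial infarction. Members were all genes whose symbol begins with Psma, Psmb, Psmc, Psmd, Psme, Psmf or Psmg, which gave 50 of the 17471 genes in the library files. All 50 passed the filter on low counts, and 13678 genes were tested. The study used siblings with floxed Yap alleles in every group. Cre-positive mice carried 1 copy of MerCreMer, a Cre recombinase activated by tamoxifen, driven by the endogenous Periostin promoter, which is active in myofibroblasts, and Cre-negative mice had wildtype Periostin. Mice were 6 to 10 weeks old, underwent permanent ligation of the left anterior descending artery (MI) or a sham operation, ate tamoxifen citrate diet from surgery on, and gave left ventricles on day 4. Each of the 4 groups had 3 libraries: Cre-negative sham, Cre-negative MI, Cre-positive sham and Cre-positive MI. Floxed Yap and tamoxifen were thus common to all groups, and no group carried the Cre without floxed Yap. The labels do not say whether each library is 1 animal, so p-values measure the spread between libraries. Because the tissue is whole ventricle, fewer cells of a type and less RNA per cell cannot be told apart.

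The proteasome degrades proteins tagged with ubiquitin. Its 20S core stacks outer rings of alpha subunits (Psma genes) on inner rings of beta subunits (Psmb genes), and a 19S cap of ATPases (Psmc genes) and non-ATPase subunits (Psmd genes) recognises, unfolds and feeds in the substrate. Interferon-gamma is known to induce the immunoproteasome, in which the catalytic subunits Psmb8, Psmb9 and Psmb10 take the places of Psmb5, Psmb6 and Psmb7, and Psme1 and Psme2 form the PA28 cap, which changes the peptides made available for MHC class I. Haematopoietic cells carry it constitutively, and cardiac muscle mainly the standard form. By these roles the members were 7 alpha-ring genes, 4 structural and 3 standard catalytic beta-ring genes, 6 genes of 19S ATPases, 11 of 19S non-ATPases, 5 immunoproteasome genes, 3 chaperones of 19S assembly, 4 of 20S assembly, 3 other activators or inhibitors and 2 tissue-restricted subunits. Psmc3ip shares only the letters of the prefix and encodes a meiotic recombination factor, and Psme2b, a gene closely related to Psme2 by name, was in no role list.

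The genes of Psmb8 and Psmb9, whose transcripts rose together after MI, lie side by side on chromosome 17 of mm10, at chr17:34198195-34201454 and chr17:34182030-34187330, with the peptide transporter gene Tap1 between them. Tap1 is 226 bases from Psmb9 and 970 bases from Psmb8. Psmb10 lies at chr8:105935728-105938392. Psme1 and Psme2 lie near each other at chr14:55578494-55581527 and chr14:55587440-55591101, and their nearest coding genes are Emc9 and Rnf31. The RefSeq promoter windows (GRCm38.p6, 250 bases before to 50 bases after the gene start, 5′ to 3′ on the gene's strand) are shown for the catalytic immunoproteasome genes and Psme1. These genes differed after MI: Psmb8 and Psmb9 rose, Psme1 fell in Cre-negative mice, and Psmb10 was not called. Capitals mark matches to the motifs counted after the sequences.
Psmb8 promoter, chr17:34197945-34198244, plus strand: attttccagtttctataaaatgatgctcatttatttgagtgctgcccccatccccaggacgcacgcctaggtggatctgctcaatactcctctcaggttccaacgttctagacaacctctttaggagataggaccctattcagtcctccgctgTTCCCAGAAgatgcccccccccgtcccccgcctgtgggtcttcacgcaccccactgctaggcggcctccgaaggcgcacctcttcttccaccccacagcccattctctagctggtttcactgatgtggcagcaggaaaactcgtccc
Psmb9 promoter, chr17:34187281-34187580, minus strand: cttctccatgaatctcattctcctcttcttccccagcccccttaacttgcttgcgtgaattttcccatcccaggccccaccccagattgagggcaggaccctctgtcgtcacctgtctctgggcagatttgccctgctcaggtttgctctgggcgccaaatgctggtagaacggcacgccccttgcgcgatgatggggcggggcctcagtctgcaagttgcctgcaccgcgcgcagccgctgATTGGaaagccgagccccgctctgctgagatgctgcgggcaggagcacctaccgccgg
Psmb10 promoter, chr8:105938343-105938642, minus strand: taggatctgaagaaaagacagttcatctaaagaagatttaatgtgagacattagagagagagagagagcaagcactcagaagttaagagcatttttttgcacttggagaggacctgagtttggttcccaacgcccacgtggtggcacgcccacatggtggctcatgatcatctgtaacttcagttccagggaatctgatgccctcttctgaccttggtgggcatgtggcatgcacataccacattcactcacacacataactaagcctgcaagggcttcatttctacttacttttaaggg
Psme1 promoter, chr14:55578244-55578543, plus strand: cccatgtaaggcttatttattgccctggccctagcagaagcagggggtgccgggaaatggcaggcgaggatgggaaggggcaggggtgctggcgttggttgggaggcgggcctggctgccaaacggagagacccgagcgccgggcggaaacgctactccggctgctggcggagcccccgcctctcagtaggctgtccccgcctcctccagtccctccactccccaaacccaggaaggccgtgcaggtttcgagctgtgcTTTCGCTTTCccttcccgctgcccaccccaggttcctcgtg
Both strands were searched for 5 short motifs in the windows of the 42 members that had one, and in all 32851 windows. A member counted once if any of its windows held the motif. The shares are of windows and not of genes, so counts and shares are in unlike units. The GAS core TTCNNNGAA, recognised by STAT factors, was in 3 members' promoters, among them Psmb8, and in 8.3% of all windows. The ISRE core, a pair of GAAA words with 2 bases of any kind between them and recognised by IRF factors, was in 5 members' promoters, among them Psme1, and in 3.44% of all windows. The ARE core TGACNNNGC, recognised by NRF factors with their Maf partners, was in 6 members' promoters, none of them of the immunoproteasome, and in 12.4% of all windows. The CCAAT box, bound by NF-Y, was in 15 members' promoters, among them Psmb9, and in 37.4% of all windows. The TEAD core GGAATG, bound by the DNA-binding partners of Yap, was in 4 members' promoters, among them Psme2, and in 14.7% of all windows. None of the 5 motifs was in the Psmb10 window. A match describes letters only, and no binding was measured here.

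Library totals ran from 10257675 to 15176286 expected counts, of which the members took between 0.3844% and 0.4538%. Cardiomyocyte markers were high in all libraries, with 28571 to 89159 summed CPM (expected counts per 1e6, scaled by the trimmed mean of M-values, TMM) over 6 genes, which fits the label of ventricle. Yap1, the floxed gene, was at 91.1 to 93.9 CPM in Cre-positive MI and 84.6 to 96.4 CPM in Cre-negative MI, so its whole-tissue level did not separate the genotypes. Y-linked reads were found in the Cre-negative libraries 3 times of 3 after MI and 2 of 3 after sham, but in the Cre-positive ones 1 time of 3 after MI and 0 of 3 after sham, so sex was unevenly spread over the groups. Cre-positive sham replicate 2 stood apart from the other sham libraries, with Myh7, the slow myosin heavy chain, at 34063 CPM against 377 to 2938 CPM, and leukocyte markers (4 genes summed) at 21.1 CPM against 52.2 to 71.3 CPM. The cardiomyocyte marker Myh6 was at 14335 CPM against 39836 to 53143 CPM. Tnni3 and Ryr2 were also below all other sham libraries, whereas Tnnt2 and Actn2 were above them and Pln lay within their range. Results that rest on this replicate are given with and without it. Counts of calls without it are not set beside the share over all genes in that fit.

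The standard subunits were abundant and of similar level. On the per-length scale of FPKM, the median over 12 libraries was 101 for Psmb5, 112 for Psmb6 and 129 for Psmb7, and 41 of the 50 members lay above 10. The immunoproteasome genes spanned a wide range. Psme1 was first of the 50 with a median FPKM of 139, whereas Psme2 was at 53.9, Psmb10 at 32.3, Psmb8 at 16.8 and Psmb9 at 8.98. Assembly chaperones, which help build the particle and are not part of it, were lower, from 5.38 for Psmg3 to 18.7 for Psmg2. The testis-restricted alpha subunit Psma8 (median FPKM 0.42) and the thymus-restricted beta subunit Psmb11 (0.235) were close to the bottom of the range.

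**Figure D1:**
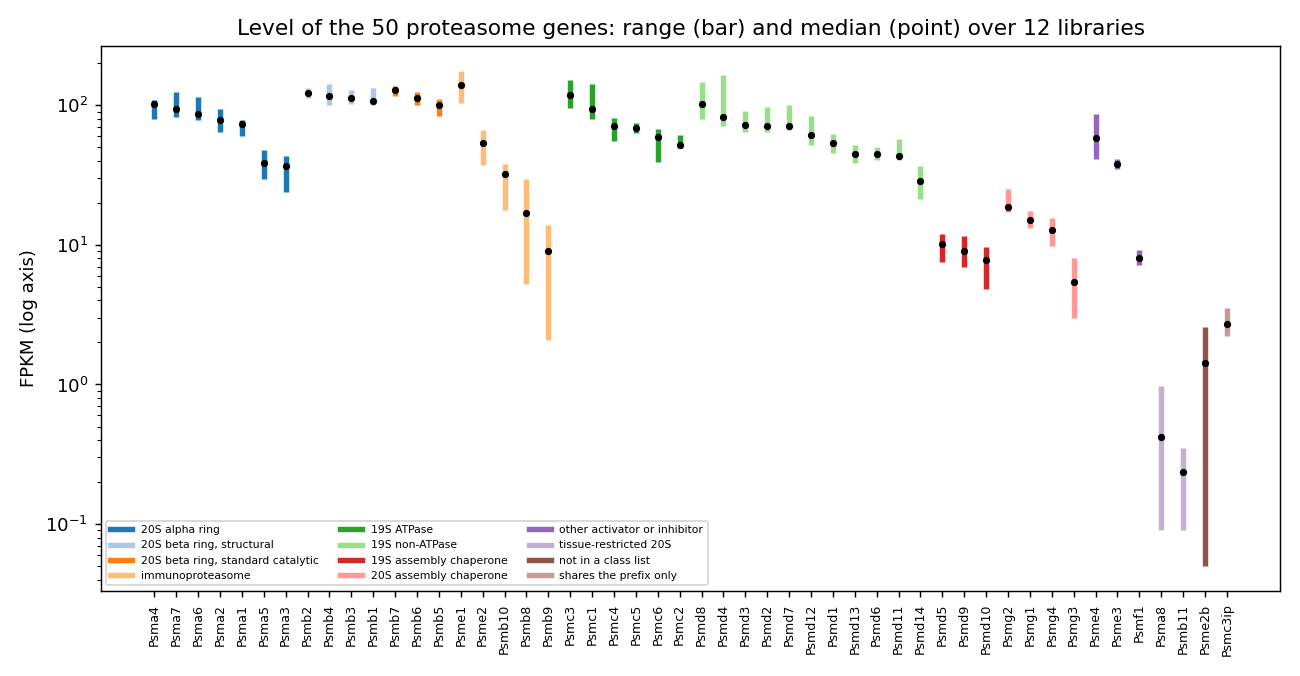
FPKM of the 50 genes on a log axis, grouped by role, with bars from the lowest to the highest of 12 libraries and points at the median. The immunoproteasome bars for Psmb8 (5.21 to 29.55) and Psmb9 (2.09 to 13.8) are long and those of most standard subunits short; Psme2b is listed at 0 in 1 library and its bar is drawn from 0.05.

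After MI, the immunoproteasome genes did not move as a block: transcripts of Psmb8 and Psmb9 rose in both genotypes, Psme1 fell in Cre-negative mice, and Psmb10 and Psme2 were not called in either. Psmb8, the immunoproteasome counterpart of the chymotrypsin-like subunit Psmb5, had 10.1, 15.5 and 10.5 CPM in Cre-negative sham and 31.4, 25.4 and 28.0 CPM in Cre-negative MI. In Cre-positive mice it had 12.9, 7.06 and 8.97 CPM after sham and 26.5, 24.5 and 27.3 CPM after MI. The MI libraries lay above every sham library in both genotypes. The log2 fold change was 1.24 ± 0.21 (SE, n = 3 per group, edgeR quasi-likelihood test, adjusted p = 0.000308) in Cre-negative and 1.43 ± 0.21 (adjusted p = 0.000172) in Cre-positive mice. Without Cre-positive sham replicate 2 the Cre-positive value was 1.2 ± 0.2 (adjusted p = 0.000289).

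Psmb9, the counterpart of the caspase-like subunit Psmb6, had 3.86, 5.99 and 5.32 CPM in Cre-negative sham and 9.1, 9.49 and 9.14 CPM in Cre-negative MI. In Cre-positive mice it had 4.5, 1.83 and 4.33 CPM after sham and 7.66, 9.47 and 10.2 CPM after MI. Sham and MI libraries did not overlap in either genotype. It rose by a log2 fold change of 0.87 ± 0.26 (SE, n = 3 per group, edgeR, adjusted p = 0.014) in Cre-negative mice, a call that was lost without Cre-negative sham replicate 1 (0.69, adjusted p = 0.0769), and by 1.35 ± 0.27 (adjusted p = 0.00156) in Cre-positive mice. Without Cre-positive sham replicate 2, which held the lowest value, the Cre-positive log2 fold change was 1.0 ± 0.2 (edgeR, adjusted p = 0.0013).

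Psmb10, the counterpart of the trypsin-like subunit Psmb7, was not called in either genotype. Its sham values were 38.8, 39.3 and 41.7 CPM and its MI values 41.7, 37.2 and 40.4 CPM in Cre-negative mice. In Cre-positive mice they were 51.6, 25.2 and 41.6 CPM after sham and 38.1, 43.0 and 37.8 CPM after MI. The groups overlapped, and the log2 fold changes were -0.01 ± 0.19 and 0.00 ± 0.19 (SE, n = 3 per group, edgeR, adjusted p = 0.982 and 0.988). Without Cre-positive sham replicate 2 the Cre-positive value was -0.28 ± 0.12 (adjusted p = 0.0668).

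Psme1, the PA28 alpha subunit, had 184, 172 and 183 CPM in Cre-negative sham and 106, 120 and 119 CPM in Cre-negative MI. In Cre-positive mice it had 176, 112 and 171 CPM after sham and 125, 125 and 124 CPM after MI. The Cre-negative groups did not overlap, whereas Cre-positive sham replicate 2 lay below all MI libraries of its genotype. Psme1 fell by 0.64 on the log2 scale in Cre-negative mice (SE 0.14, n = 3 per group, edgeR, adjusted p = 0.00222), and the Cre-positive log2 fold change of -0.30 ± 0.14 was not called (adjusted p = 0.102). Without that replicate it was called in both, at -0.67 ± 0.08 (edgeR, adjusted p = 1.16e-05) and -0.52 ± 0.09 (adjusted p = 0.000376). Psme1 overlaps the neighbouring gene Emc9 by 8 bases. Psme2, the PA28 beta subunit, had 42.1, 43.6 and 39.9 CPM after sham against 48.9, 45.5 and 47.5 CPM after MI in Cre-negative mice, and 45.1, 35.5 and 42.8 CPM against 46.8, 47.2 and 47.7 CPM in Cre-positive mice. MI libraries were above sham libraries in both genotypes, but the log2 fold changes of 0.18 ± 0.10 and 0.20 ± 0.10 (SE, n = 3 per group, edgeR) had adjusted p = 0.144 and 0.112. On total counts alone, without TMM factors, Psme2 was called higher in both, at 0.42 and 0.43 (adjusted p = 0.00513 and 0.00618).

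**Figure D2:**
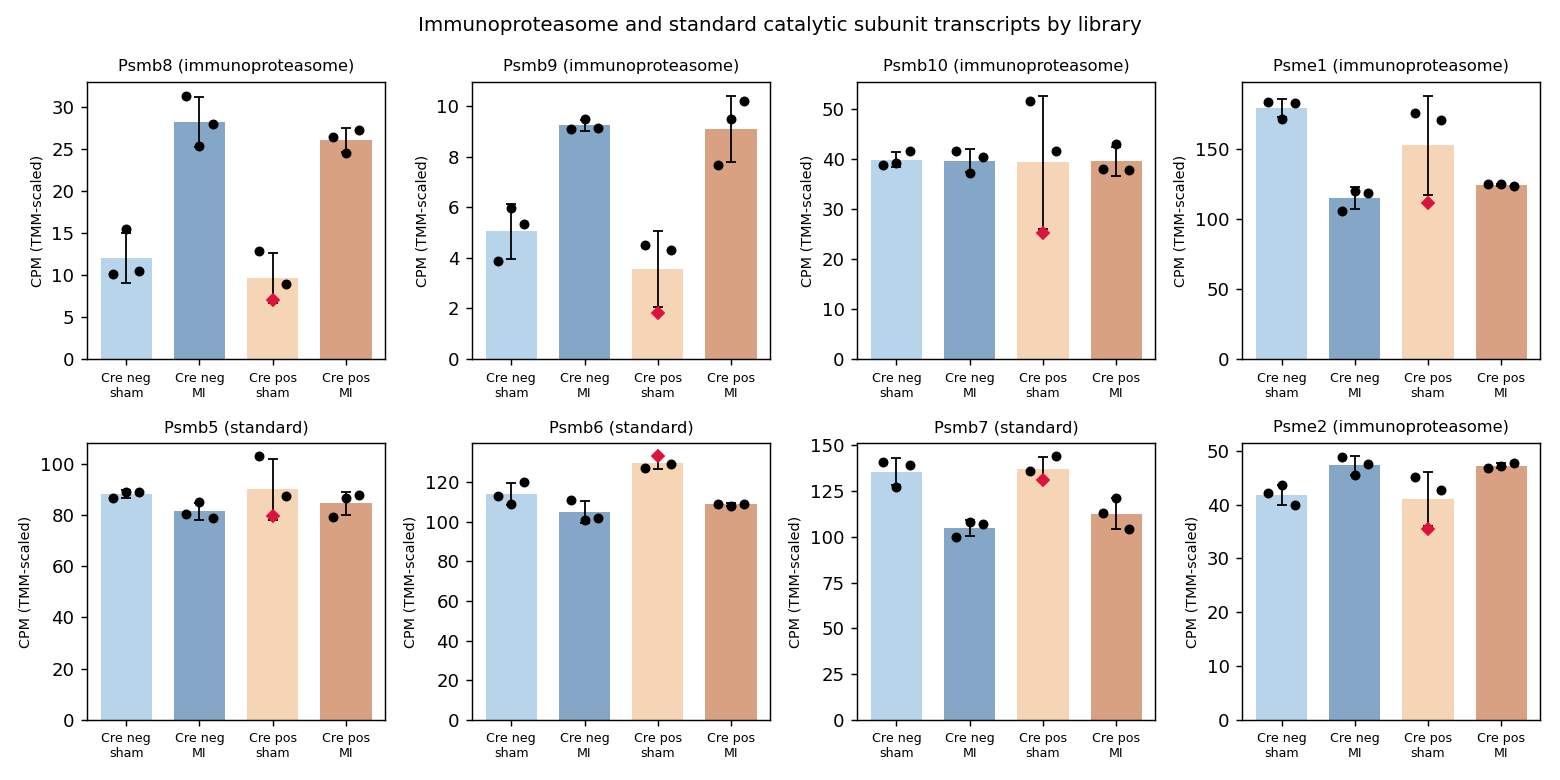
CPM of the 5 immunoproteasome genes and the 3 standard catalytic genes in each library (points), with bars at the group mean and error bars at the SD of 3 libraries; the diamond is Cre-positive sham replicate 2. All MI points of Psmb8 (24.5 to 31.4) lie above all sham points (7.06 to 15.5), and the diamond is the lowest sham point for each immunoproteasome gene.

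None of the 3 standard catalytic subunits was called higher, with TMM or on total counts. Among Cre-negative libraries Psmb5 had 86.6, 89.1 and 89.2 CPM after sham against 80.4, 85.2 and 78.9 CPM after MI. Among Cre-positive libraries it had 103, 79.5 and 87.6 CPM after sham against 79.3, 86.6 and 87.8 CPM after MI. It was not called (log2 fold change -0.12 ± 0.10 and -0.09 ± 0.10, SE, n = 3 per group, edgeR, adjusted p = 0.337 and 0.489). Psmb6 had 113, 109 and 120 CPM after sham against 111, 101 and 102 CPM after MI in Cre-negative libraries, which overlapped, and 127, 133 and 129 CPM against 109, 108 and 109 CPM in Cre-positive libraries, which did not. Psmb7 had 141, 127 and 139 CPM after sham against 100, 108 and 107 CPM after MI in Cre-negative libraries, and 136, 131 and 144 CPM against 113, 121 and 104 CPM in Cre-positive libraries, with no overlap in either. With TMM scaling Psmb7 fell by 0.37 in Cre-negative and 0.28 in Cre-positive mice on the log2 scale (edgeR, adjusted p = 0.00311 and 0.0196), and Psmb6 fell by 0.25 in Cre-positive mice (adjusted p = 0.02), calls that none of them kept on total counts alone (adjusted p = 0.206, 0.633 and 0.876). Without Cre-positive MI replicate 1 or 3 the Cre-positive calls of Psmb7 and Psmb6 were lost, and that of Psmb6 also without Cre-positive MI replicate 2 (adjusted p up to 0.0846 for Psmb7 and 0.0563 for Psmb6).

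Because scaling moves every gene of a library alike, the catalytic pairs were also compared within each library, as the share of the immunoproteasome transcript in the summed FPKM of the pair. Psmb8 made up 7.56%, 10.9% and 7.67% of Psmb8 plus Psmb5 in Cre-negative sham and 21.6%, 17.3% and 20% in Cre-negative MI. In Cre-positive mice it made up 8.16%, 5.87% and 6.73% after sham and 19%, 16.6% and 17.9% after MI. The group means were 8.71% ± 1.9, 19.6% ± 2.17, 6.92% ± 1.16 and 17.8% ± 1.2 (SD, n = 3). No sham share reached an MI share. Psmb9 made up 5.45% ± 1.21 of Psmb9 plus Psmb6 after sham and 10.3% ± 0.644 after MI in Cre-negative mice, and 3.46% ± 1.46 against 9.78% ± 1.29 in Cre-positive mice (SD, n = 3). The log2 ratio rose by 1.47 for Psmb8 over Psmb5 and by 1.36 for Psmb9 over Psmb6 (mean over the genotypes, two-sided exact permutation test within genotype, p = 0.005 for each, the smallest the design allows, and 0.015 adjusted over 6 tests). Leaving out 1 library at a time gave 1.41 to 1.56 and 1.14 to 1.48.

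Psmb10 made up 18.2% ± 0.889 of Psmb10 plus Psmb7 in Cre-negative sham and 22.3% ± 1.65 in Cre-negative MI, then 17.6% ± 4.81 and 21.0% ± 0.611 in Cre-positive sham and MI (SD, n = 3). Its log2 ratio differed by 0.36, with an exact permutation p = 0.025 that became 0.05 after adjustment over 6 tests and missed the threshold; the adjusted p lay between 0.01 and 0.12 when 1 library was left out. Psme1 and Psme2, whose products assemble together, were set side by side after their values were seen and carry no test. Psme1 made up 79.2% ± 1.12 of the pair in Cre-negative sham and 68.0% ± 2.4 in Cre-negative MI, and 76.4% ± 2.33 and 69.7% ± 0.346 in Cre-positive sham and MI (SD, n = 3). Every sham library, Cre-positive sham replicate 2 included, was above every MI library.

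**Figure D3:**
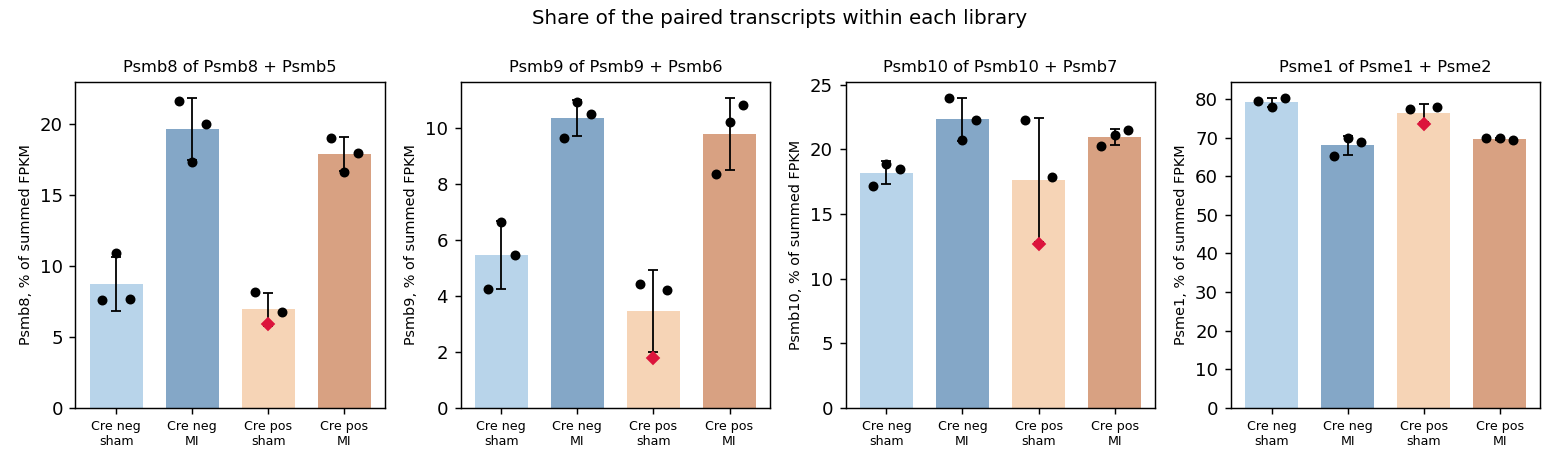
Share of the first transcript in the summed FPKM of each pair, in percent, per library (points) with group means (bars) and SD over 3 libraries; the diamond is Cre-positive sham replicate 2. Sham and MI points do not overlap for Psmb8 (5.87% to 10.9% against 16.6% to 21.6%), Psmb9 or Psme1, and they do for Psmb10.

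Over all 50 members, 3 were called higher after MI in Cre-negative mice, against 29.9% of all genes tested, and 12 were called lower, against 24.4% (edgeR, TMM, adjusted p under 0.05). In Cre-positive mice 3 were called higher, against 25.7%, and 16 lower, against 19.5%. The median log2 fold change of the members was -0.12 and -0.16, beside 0.02 and 0.02 over all genes tested. The 3 higher calls, Psmb8, Psmb9 and Psmd8, were common to both genotypes. Of the lower calls 9 were common to both: the alpha-ring gene Psma6, the beta-ring genes Psmb2 and Psmb7, the ATPases Psmc2, Psmc3 and Psmc5, the lid and base subunits Psmd12 and Psmd2, and the 20S chaperone Psmg2. Those 9 were 75% of the Cre-negative and 56.2% of the Cre-positive lower calls. The share of all genes called in both genotypes was not set beside this overlap, so it does not set the members apart. As a share of the 50 members, the 12 Cre-negative lower calls were close to the 24.4% over all genes. With each of the 12 libraries left out in turn, 2 of the 9, Psmc3 and Psmc5, were called lower in both genotypes every time. The Cre-negative call of Psmc2 (adjusted p = 0.0429) was lost without any 1 of 7 libraries (Cre-negative sham replicates 1 and 2, the 3 Cre-negative MI replicates, and Cre-positive MI replicates 1 and 3), with adjusted p up to 0.138, and its Cre-positive call without Cre-positive MI replicate 1 or 3 (up to 0.0531). That of Psma6 was lost without Cre-negative sham replicate 1 or Cre-negative MI replicate 2 or 3 (up to 0.0872), and in Cre-positive mice without sham replicate 2 or any 1 MI replicate (up to 0.0802). Psmd12 lost its Cre-negative call without any 1 Cre-negative MI replicate (up to 0.0819) and its Cre-positive call without Cre-positive MI replicate 3 (0.0559). Psmd2 lost its Cre-negative call without Cre-negative sham replicate 1 or Cre-negative MI replicate 2 or 3 (up to 0.0948).

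The calls of the standard subunits, and the sign of some of them, depended on the scaling. On total counts alone, an alternative chosen after seeing the data, the median of all genes moved up by 0.247 and 0.229 on the log2 scale, 14 members were called higher and 2 lower in Cre-negative mice (41.2% and 13.4% of all genes), and 11 higher and 1 lower in Cre-positive mice (36.4% and 8.39%). By limma on log2(FPKM + 1), which carries no TMM factor, 14 were higher and 2 lower in Cre-negative mice (41.5% and 13.5% of all genes) and 13 higher and 1 lower in Cre-positive mice (36.8% and 8.14%). Of the TMM lower calls, 11 of 12 and 15 of 16 kept a negative sign on total counts, the exceptions being Psmb2 in Cre-negative and Psmb3 in Cre-positive mice, and 0 became called higher. Psmb8 and Psmb9 stayed called higher and Psmc3 lower in both genotypes on total counts, as did Psme1 in Cre-negative mice. Psmb2, a structural beta subunit, fell by 0.24 and 0.31 with TMM (edgeR, adjusted p = 0.0173 and 0.00557), and the Cre-negative call was lost without Cre-negative sham replicate 3 or Cre-negative MI replicate 2 (up to 0.0634). Psmc3, the ATPase Rpt5, had 228, 201 and 218 CPM in Cre-negative sham against 156, 140 and 153 CPM after MI. Among Cre-positive libraries it had 220, 281 and 228 CPM after sham against 171, 184 and 164 CPM after MI, again without overlap. It fell by 0.53 and 0.49 on the log2 scale (edgeR, adjusted p = 0.00132 and 0.00265), and by 0.28 and 0.26 on total counts (adjusted p = 0.0309 and 0.0461).

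Within the roles, the 20S alpha ring had 1 of 7 members lower in Cre-negative and 2 of 7 in Cre-positive mice with TMM scaling, and on total counts 3 of 7 were called higher in each. Both Cre-positive calls were lost without Cre-positive sham replicate 2 (Psma6 -0.23, adjusted p = 0.0541, and Psma7 -0.18, adjusted p = 0.106), which left 0 of 7. The median log2 fold change of its 7 genes was 0.02 and -0.04 with TMM and 0.27 and 0.19 on total counts, close to the all-gene medians of each scaling. The 4 structural beta-ring genes had 1 and 2 lower calls with TMM, and on total counts 2 of them were called higher in Cre-negative mice and 0 in Cre-positive mice.

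The 19S cap had a lower median than the standard 20S core in Cre-negative mice in both scalings, and in Cre-positive mice as long as sham replicate 2 was kept. Its 17 genes had a median log2 fold change of -0.24 in Cre-negative and -0.32 in Cre-positive mice with TMM, and 0.01 and -0.09 on total counts, where the 14 genes of the standard 20S had -0.04 and -0.16 with TMM and 0.21 and 0.07 on total counts; the difference between the sets was not tested. Without Cre-positive sham replicate 2 the medians with TMM were -0.27 for the 19S and -0.06 for the 20S in Cre-negative mice, but -0.16 and -0.18 in Cre-positive mice, where the order turned. Among ATPases, which drive unfolding, 3 of 6 were called lower in each genotype with TMM and 1 of 6, Psmc3, on total counts, where Psmc4 was called higher in Cre-negative mice (0.43, adjusted p = 0.000878). With that library left out, 5 of 6 ATPases were called lower in Cre-negative and 3 of 6 in Cre-positive mice with TMM. The share of all genes called in that fit was not set beside these counts, so they do not set the ATPases apart. Psmc5 (Rpt6) fell by 0.29 and 0.32 (edgeR, adjusted p = 0.00704 and 0.00515), with -0.04 and -0.09 on total counts. With TMM Psmc4 had a log2 fold change of 0.18 in Cre-negative mice and was not called.

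Psmd8, the lid subunit Rpn12, was the one standard subunit called higher with TMM; on total counts 8 of the 31 standard subunits were called higher in Cre-negative and 5 in Cre-positive mice. It had 135, 132 and 137 CPM in Cre-negative sham and 198, 176 and 173 CPM in Cre-negative MI, a log2 fold change of 0.44 ± 0.08 (SE, n = 3 per group, edgeR, adjusted p = 0.000638). In Cre-positive mice it had 148, 143 and 143 CPM after sham and 176, 169 and 164 CPM after MI, a log2 fold change of 0.23 ± 0.08 (adjusted p = 0.0324). The MI libraries lay above the sham libraries in both genotypes. The Cre-positive call was lost in 12 alternatives, 8 of them with 1 library left out (the 3 Cre-negative sham, the 3 Cre-positive MI and Cre-positive sham replicates 2 and 3, adjusted p up to 0.122), for example without Cre-positive sham replicate 2 (log2 fold change 0.19, adjusted p = 0.105). Other non-ATPase genes were lower with TMM: 2 of 11 in Cre-negative and 5 of 11 in Cre-positive mice, against 0 on total counts. Without Cre-positive sham replicate 2 the TMM counts were 7 and 4 of 11, with no share over all genes in that fit beside them. Psmd4, the ubiquitin receptor Rpn10, fell by 0.69 in Cre-positive mice (edgeR, adjusted p = 0.0214) and by 0.32 without Cre-positive sham replicate 2 (adjusted p = 0.0272), and the call was lost without Cre-positive MI replicate 1 or 3 (up to 0.071). Psmd2 (Rpn1) fell by 0.45 and Psmd3 (Rpn3) by 0.41 in Cre-positive mice (edgeR, adjusted p = 0.0089 and 0.00684), and by 0.33 each without that replicate (adjusted p = 0.0112 and 0.0104).

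Among assembly chaperones, 0 of 3 of the 19S type were called with TMM, and Psmg2, 1 of 4 of the 20S type, fell by 0.39 and 0.41 (edgeR, adjusted p = 0.0182 and 0.0162, and 0.365 and 0.264 on total counts). On total counts the chaperones Psmd5, Psmd10 and Psmg3 were called higher in both genotypes and no chaperone lower. In that scaling 41.2% of all genes in Cre-negative and 36.4% in Cre-positive mice were called higher. The Cre-negative call of Psmg2 was lost without Cre-negative sham replicate 1 or Cre-negative MI replicate 1 or 2, and the Cre-positive one without Cre-positive sham replicate 1 (adjusted p up to 0.0649 and 0.0546). Psme4, the PA200 activator, had 630, 424 and 398 CPM in Cre-negative sham and 318, 353 and 342 in Cre-negative MI. It fell by 0.52 (edgeR, adjusted p = 0.0311), a call lost without Cre-negative sham replicate 1 or any 1 of the Cre-negative MI replicates (adjusted p up to 0.131), and had a log2 fold change of 0.01 in Cre-positive mice. It overlaps Erlec1, so that reads of the 2 genes could be shared. Psme3, the nuclear PA28 gamma activator, fell by 0.30 in Cre-positive mice (adjusted p = 0.00816), and Psmf1, the inhibitor PI31, fell by 0.38 in Cre-negative mice (adjusted p = 0.0124), neither being called on total counts (0.486 and 0.329). Psma8 (0.161 to 1.7 CPM), Psmb11 (0.376 to 1.47 CPM), Psmc3ip (2.05 to 3.61 CPM) and Psme2b (0 to 2.47 CPM) were low throughout and not called, and reads of Psme2b may be shared with Psme2.

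**Figure D4:**
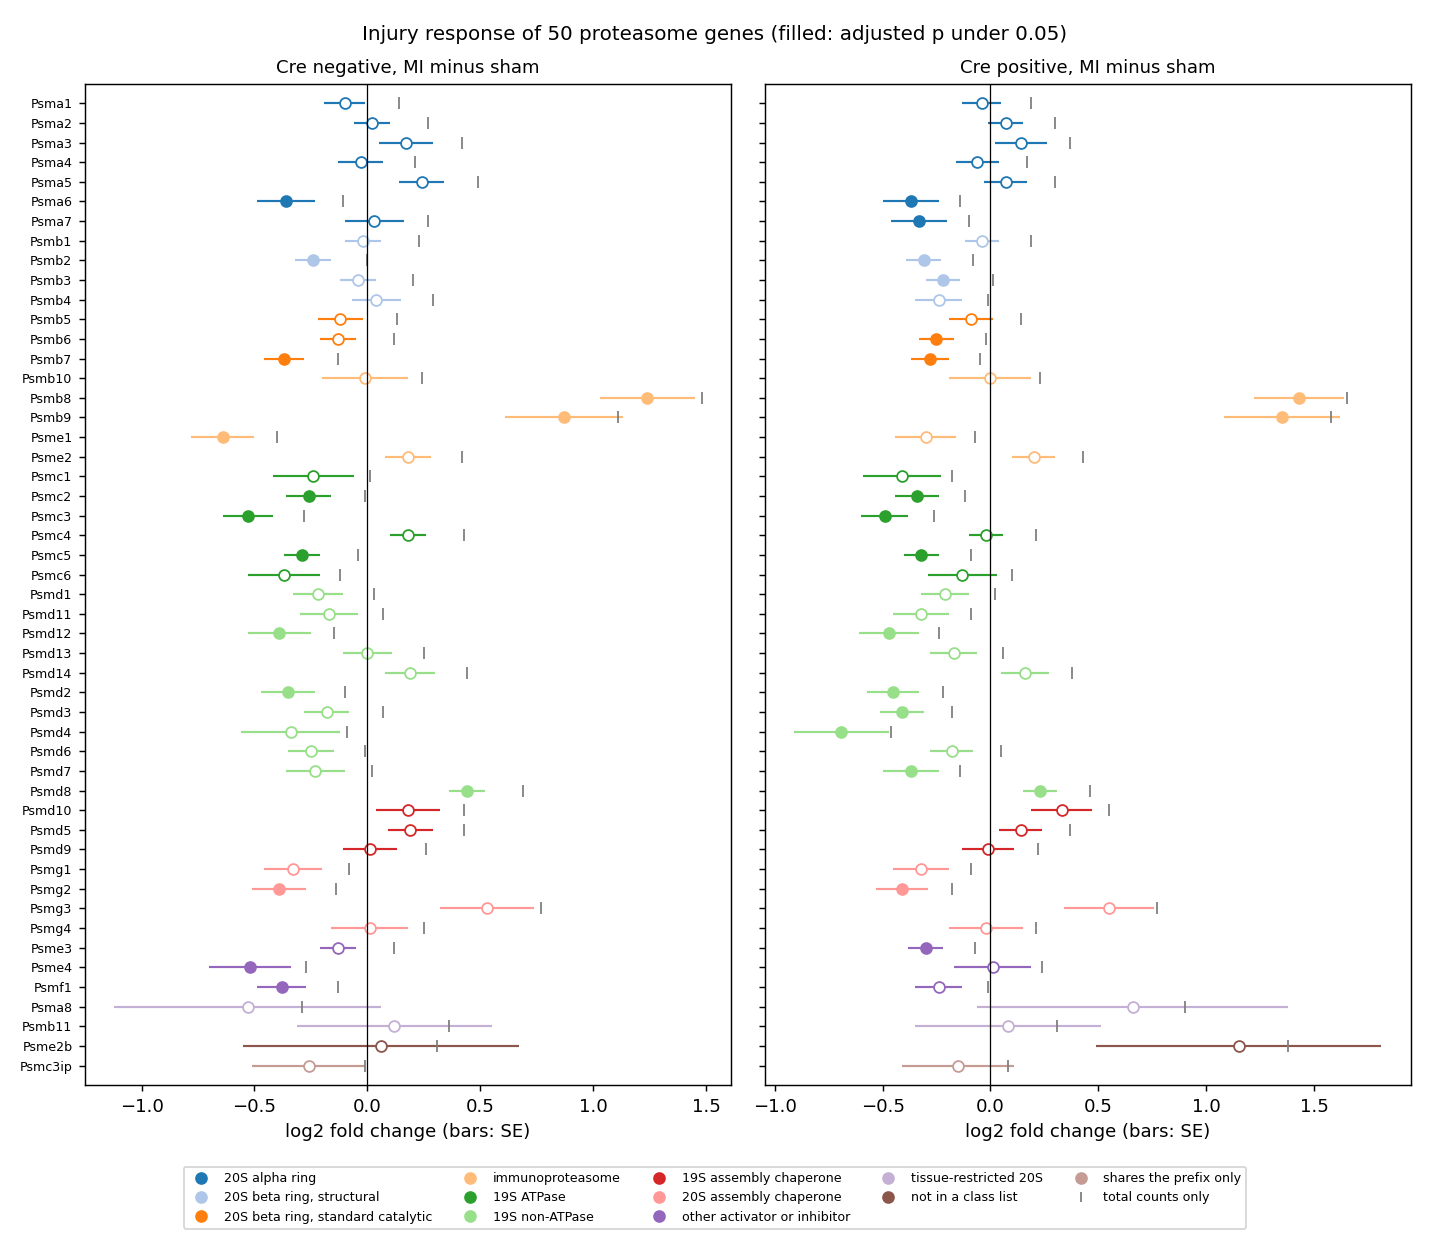
Log2 fold change after MI with SE for each of the 50 genes in Cre-negative (left) and Cre-positive (right) mice, coloured by role and filled where adjusted p was under 0.05; grey ticks give the value on total counts alone. Psmb8 (1.24 and 1.43) and Psmb9 (0.87 and 1.35) have the highest values in both panels, the low-count gene Psme2b comes next at 1.15 in the Cre-positive one without a call, and the ticks of most standard subunits sit near 0 or to its right.

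The genotypes gave no called member. In Cre-positive against Cre-negative mice, 0 of 50 members were called after MI (0% of all genes tested) and 0 of 50 after sham (0.0512%), and 0 differed in their injury response (0%), by edgeR. At an unadjusted p under 0.05 there were 0, 5 and 0 members by edgeR. The share of all genes under that threshold was not set beside these counts, so they do not set members apart from other genes. DESeq2 called 0 members in all 3 comparisons (1.29%, 0.263% and 0.234% of all genes tested). Apart from the catalytic and PA28 genes, the members with the smallest unadjusted p after MI were Psmc3 (log2 fold change 0.20 ± 0.11, edgeR, adjusted p = 0.469), Psmf1 (0.14), Psmd8 (-0.10), Psmd14 (-0.11), Psmg2 (0.12) and Psmd9 (-0.11). After sham they were Psma7 (0.30 ± 0.13, adjusted p = 0.59), Psmb4 (0.25), Psmd3 (0.24), Psmc4 (0.17), Psmd4 (0.47) and Psma8 (-1.47). Leaving out Cre-positive sham replicate 2 put these 6 at 0.15, 0.19, 0.15, 0.13, 0.08 and -1.24, with adjusted p from 0.583 to 0.807. For the difference in injury response they were Psme4 (0.53 ± 0.26, adjusted p = 0.62), Psma7 (-0.36), Psmb4 (-0.28), Psmc4 (-0.20), Psmd8 (-0.20) and Psmd3 (-0.23), and without that library 0.53, -0.18, -0.20, -0.15, -0.23 and -0.13. They included core, cap, activator, inhibitor and chaperone genes. Psmb8 differed by -0.12 ± 0.20 after MI and -0.31 ± 0.22 after sham, and Psmb9 by -0.02 ± 0.25 and -0.50 ± 0.29 (SE, n = 3 per group, edgeR, adjusted p from 0.636 to 0.984). The sham differences without Cre-positive sham replicate 2 were -0.09 ± 0.20 for Psmb8 and -0.16 ± 0.21 for Psmb9. The within-library log2 ratios, averaged over surgeries, differed by -0.26 for Psmb8 over Psmb5, -0.44 for Psmb9 over Psmb6 and -0.10 for Psmb10 over Psmb7 (two-sided exact permutation test, p = 0.08, 0.095 and 0.58; 0.114, 0.114 and 0.58 adjusted over 6 tests). Leaving out 1 library at a time gave -0.33 to -0.16, -0.56 to -0.22 and -0.21 to 0.03. These values do not show that the genotypes were alike, and the Cre-positive groups also held fewer libraries with Y-linked reads.

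In Cre-positive sham replicate 2 most 19S genes were above the other sham libraries, while the immunoproteasome genes and most assembly chaperones were below them. Of its 19S genes, 5 of 6 ATPases and 9 of 11 non-ATPases were above all 5 other sham libraries, as were 25 of 50 members and 30% of all genes tested. All 5 immunoproteasome genes were below all 5, beside 11 of 50 members and 29.8% of all genes. So were 2 of 3 chaperones of the 19S, 3 of 4 of the 20S, and Psmb5, and 14 members lay within the range of the 5. Psmd4 was at 244 CPM against 108 to 131, and the 17 genes of the 19S summed to 2785 CPM against 2018 to 2185. Psmb9 was at 1.83 CPM against 3.86 to 5.99, Psmb10 at 25.2 CPM against 38.8 to 51.6, and Psme1 at 112 CPM against 171 to 184. Macrophage markers (7 genes summed) were at 96.5 CPM in this library against 249 to 352 CPM in the other 5. Cardiomyocyte markers (6 genes summed) were at 49154 CPM against 70994 to 89159 CPM. The part of either cell type in the values of this library was not tested. Without it, 4 members were called higher and 20 lower in Cre-negative mice, and 2 higher and 15 lower in Cre-positive mice. The share of all genes called in that fit was not set beside these counts. A change particular to the members can therefore not be told from one over all genes.

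**Figure D5:**
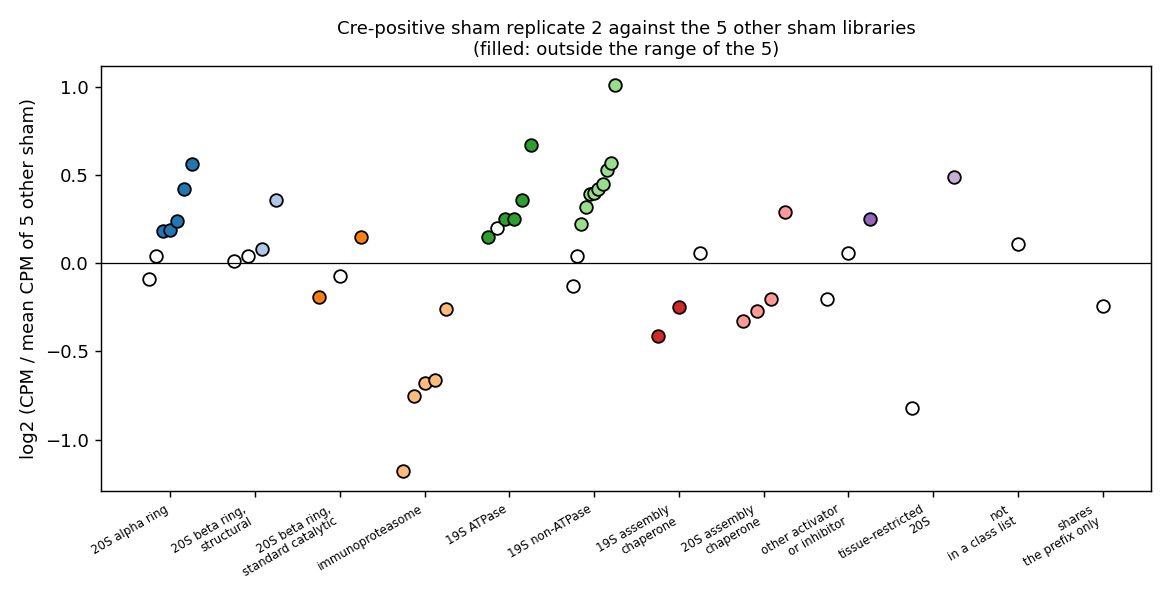
Each point is a proteasome gene in Cre-positive sham replicate 2, as the log2 ratio of its CPM to the mean of the 5 other sham libraries, grouped by role; filled points lie outside the range of those 5. The 5 immunoproteasome genes are all below 0 (-1.18 to -0.26) and most 19S genes above it, up to 1.01 for Psmd4.

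Genes of MHC class I presentation, which use the peptides that the proteasome makes, were mostly higher after MI: 7 of 10 rose and 1 fell in Cre-negative mice, and 6 rose and 0 fell in Cre-positive mice, with 7 rising in each on total counts and 0 falling. Over all genes tested, 29.9% and 25.7% were called higher and 24.4% and 19.5% lower with TMM in Cre-negative and Cre-positive mice, and 41.2% and 36.4% higher and 13.4% and 8.39% lower on total counts, and the list counts that follow stand beside these shares. The median log2 fold change of these 10 genes was 0.89 and 0.67, beside 0.02 over all genes tested in each genotype. The class I heavy chain H2-D1 rose by a log2 fold change of 1.30 and 1.28, its light chain B2m by 1.18 and 1.2, and Pdia3, a chaperone of peptide loading, by 1.21 and 0.79 (edgeR, adjusted p from 2.59e-05 to 0.000936). Tap1 and Erap1 are named after their values were seen. Tap1, the neighbour of Psmb8 and Psmb9, rose by 1.27 and 1.66 (edgeR, adjusted p = 0.00206 and 0.000522), and Erap1, which trims peptides in the endoplasmic reticulum, fell by 0.38 in Cre-negative mice with TMM (adjusted p = 0.00726) and was not called on total counts (0.327). Of 8 tested genes of interferon-gamma signalling and class I regulation (median 0.26 and 0.36), 3 rose and 2 fell in Cre-negative and 4 rose and 1 fell in Cre-positive mice, and on total counts 5 rose and 0 fell in each. In Cre-positive mice 4 rose and 2 fell when Cre-positive sham replicate 2 was left out. Irf8, a factor of myeloid cells, rose by 2.2 and 1.66, and the receptor chain Ifngr1 by 0.53 and 0.56 (edgeR, adjusted p from 2.33e-07 to 0.00126). The kinase Jak1 fell by 0.42 and 0.32 with TMM (adjusted p = 0.00341 and 0.0202) and was not called lower on total counts. Irf1, named after its values were seen because it acts on immunoproteasome genes, was not called, with log2 fold changes of 0.19 and 0.19 (adjusted p = 0.247 and 0.273). In the same libraries the leukocyte markers, 4 of 4, and the macrophage markers, 7 of 7, were higher after MI in both genotypes. The leukocyte markers summed to 21.1 to 71.3 CPM over the sham and 289 to 495 CPM over the MI libraries, and the macrophage markers to 96.5 to 352 CPM and 1352 to 1999 CPM, with none of these genes at 0 in any whole group. Neutrophil markers were called higher for 3 of 4 genes in Cre-negative and 1 of 4 in Cre-positive mice, B cell markers for 2 of 4 in each, and fibroblast markers for 4 of 5 in each. T and NK cell markers summed to 0.516 to 1.61 CPM and 1.75 to 3.94 CPM. Cardiomyocyte markers were lower, 6 of 6 in Cre-negative and 4 of 6 in Cre-positive mice (6 of 6 without sham replicate 2). The part of these cell types in the Psmb8 and Psmb9 response was not tested.

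For the other genes of the pathway the counts also depended on the scaling; with TMM 29.9% and 25.7% of all genes tested rose and 24.4% and 19.5% fell in Cre-negative and Cre-positive mice. Among 11 subunits and partners under other symbols (median log2 fold change -0.14 and -0.26), 0 rose and 2 fell in Cre-negative and 0 rose and 4 fell in Cre-positive mice with TMM, and 1 rose and 2 fell in each on total counts. When Cre-positive sham replicate 2 was left out, 4 fell in Cre-negative and 3 in Cre-positive mice. The proteasome scaffold gene AI314180, also called Ecpas, fell by 0.88 and 0.55 (edgeR, adjusted p = 2.98e-05 and 0.00135), and Zfand5, a proteasome activator, by 0.58 in Cre-negative mice (adjusted p = 0.00103). The proteasome-bound deubiquitinase Usp14 had -0.27 and -0.26 and was not called. Of 15 genes of ubiquitin supply and delivery (median -0.14 and -0.29), 1 rose and 5 fell in Cre-negative mice and 1 rose and 8 fell in Cre-positive mice, while on total counts 3 rose and 2 fell in the former and 2 rose and 2 fell in the latter. The shuttle factor Ubqln4 fell by 0.73 in Cre-negative and 0.79 in Cre-positive mice, and the ubiquitin and ribosomal fusion gene Rps27a rose by 0.69 and 0.56 (edgeR, adjusted p from 3.7e-05 to 0.00124). Of 9 genes of the NRF factors and their processing (median 0.01 and -0.28), 0 rose and 2 fell in each genotype with TMM, and 2 rose and 1 fell in Cre-negative and 0 rose and 1 fell in Cre-positive mice on total counts. Without Cre-positive sham replicate 2 their medians were -0.02 and 0.03, both of the other sign, with 1 rising and 3 falling in Cre-negative and 0 rising and 2 falling in Cre-positive mice. Nfe2l1, the factor that drives proteasome genes when the proteasome is inhibited, fell by 0.66 and 0.53 (edgeR, adjusted p = 0.000527 and 0.00318). Keap1, which holds back the related factor NRF2, fell by 0.37 and 0.28 with TMM (adjusted p = 0.00548 and 0.0254; 0.302 and 0.659 on total counts), and Ngly1, an enzyme that processes the Nfe2l1 product, had -0.33 and -0.17 and was not called.

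In the authors' deposited tables, which were made with DESeq2, Psmb8 had log2 fold changes of 1.21 in Cre-negative and 1.39 in Cre-positive mice (adjusted p = 9.56e-10 and 6.42e-07). Psme1 had -0.67 and -0.34 in the authors' deposited tables (adjusted p = 9.52e-11 and 0.225). Psmd8 had 0.41 and 0.2 there (DESeq2, adjusted p = 0.000103 and 0.16), so its Cre-positive call was absent. At an adjusted p under 0.05 those tables had 3 members higher and 19 lower in Cre-negative mice. In Cre-positive mice they had 2 higher and 11 lower, so the lower counts stood in the reverse order of edgeR. The share over all genes was not set beside these counts.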

How the data were processed

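RNA of mouse left ventricle was sequenced as 12 libraries (4 groups of 3). Per the submitters' processing notes, the authors aligned reads with Bowtie2 2.2.5 to mm10 and estimated expression with RSEM 1.2.12, and deposited expected counts and FPKM values per gene and library. The authors also deposited log2 fold changes and adjusted p-values from DESeq2, per the file names; their tables are quoted only where named. Whether counting used strand is not given in the sources used here, so reads of overlapping genes could be shared.

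Expected counts were rounded and tested with edgeR 4.0.16 (R 4.3.3): filterByExpr (minimum count 10, 13678 of 17471 genes kept), TMM scaling, and a quasi-likelihood test in 1 model of the 4 groups. Benjamini-Hochberg adjustment ran over all genes tested, with calls at an adjusted p under 0.05. Log2 fold changes carry their SE. Ratios of FPKM within a library were compared by exact permutation within strata (400 arrangements). The fits were tested on simulated data. Alternatives were DESeq2 1.42.0, limma 3.58.1 on log2(FPKM + 1), RLE size factors, no filter, the compared groups alone, a replicate block, a Y-linked term, each library left out, and total counts.

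Genes described are the 5 immunoproteasome and 3 standard catalytic genes, the 6 other members with the smallest p per comparison, members called against their class, low members, and up to 3 genes per related list by smallest p. A gene that this rule would name is not reported here. Members and lists were chosen with earlier results of these data known.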

Additional observations from a re-analysis of the deposited data

How the results depend on the processing

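The count of members called higher after MI in Cre-negative mice (3) was 14 on total counts, 14 by limma on log2(FPKM + 1) and 5 with the compared groups alone, and from 2 to 5 with 1 library left out (5 without Cre-positive sham replicate 1). The count called lower (12) was 2 on total counts, 2 by limma and 18 with the compared groups alone, and from 5 (without Cre-negative MI replicate 2) to 20 (without Cre-positive sham replicate 2). In Cre-positive mice the count higher (3) was 11 on total counts and 13 by limma, and from 2 to 6 with 1 library left out (6 without Cre-positive sham replicate 1). The count lower (16) was 1 on total counts, 1 by limma and 3 with the compared groups alone, and from 8 (without Cre-positive MI replicate 1 or 3) to 19. Shares over all genes were not set beside the counts with the compared groups alone, a replicate block or 1 library left out. Changes in those counts can therefore not be told from changes over all genes. In the genotype comparisons and the difference of responses the count was 0 in every alternative run. The difference for Psmb10 over Psmb7 ran from 0.22 to 0.47 and passed the threshold at 0.47 without Cre-positive sham replicate 1. On total counts 15 of 50 members in Cre-negative and 13 in Cre-positive mice had a log2 fold change of the other sign, and by limma 14 and 13. Those called in either fit were Psmb1 (0.23 on total counts, 0.22 by limma) and Psmb2 (0.00 and 0.01) in Cre-negative mice, and Psmb3 (0.01 and 0.01) and, by limma, Psmc4 (0.21) in Cre-positive mice; the cause was not tested beyond the change of scale itself. Deviations of libraries with the same replicate number correlated at -0.113 to 0.288. These deviations are from means of 3 libraries, so the check cannot decide whether the numbers pair samples. The labels do not say that they do. With a replicate block, 3 members were higher and 11 lower in Cre-negative mice, and 3 higher and 14 lower in Cre-positive mice. Of 2480 values of single genes under an alternative (1 per gene, comparison and alternative), 2061 kept direction and side of the threshold, 144 lost a call, 93 gained one, 175 changed sign without a call in either fit and 7 changed sign with one. Low counts of Psma8, Psmb11 and Psme2b limit what could be detected for them.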
